A study of Arabidopsis thaliana with 2 samples.

Results

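The regions described here are the hotspots of a single-stranded RNA library that lay wholly inside the 3′ untranslated region (UTR) of an mRNA. A hotspot is a strand-specific genome interval that the authors deposited for that library. Each of the 27444 nuclear protein-coding genes was represented by the isoform with the longest coding sequence, and a hotspot was kept where every base fell in a 3′ UTR exon of such an isoform on the same strand. This gave 2447 of the 32785 hotspots on chromosomes 1 to 5, or 7.46% (95% exact binomial interval 7.18 to 7.75), on 2310 genes. The whole series holds 33187 hotspots. Both libraries, 1 of single-stranded RNA and 1 of ribosome-bound RNA, came from clusters of unopened, immature flower buds of Arabidopsis thaliana Col-0, and the labels give no other genotype or treatment of the plants. For the second library, RNA of pooled monosomes and polysomes was fragmented with a reagent before the library was made, so its values are taken as levels of ribosome-bound mRNA. The single-stranded library is labelled as treated with a dsRNase, in brackets RNase ONE, yet RNase ONE is known as an enzyme that cuts single-stranded RNA. Whether a hotspot marks unpaired bases is therefore not settled by the label, and the library is called by its name. With 1 library per assay nothing has a replicate check, no p-value is given, and the intervals cover counting error only.

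The 3′ UTR begins after the stop codon and ends where the poly(A) tail is added. It carries sites for proteins and small RNAs that set how long an mRNA lasts, where it goes and how well it is translated. PUF proteins, called APUM in Arabidopsis, bind 3′ UTRs of animals, yeast and plants through a short core that begins with TGTA in DNA letters. The motif AATAAA is the canonical poly(A) signal, which plants use in many variant forms, and unusually long 3′ UTRs can expose an mRNA to nonsense-mediated decay.

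The PUF core TGTANATA was present in 67 of the 2447 hotspots (2.74%, 2.13 to 3.46). The 5 longest such hotspots among those that share the most negative deposited score, -3.59, and the 3 on the genes of highest ribosome-bound RNA are shown as the site with its neighbouring bases, so that the context of a potential PUF site can be read. Capitals mark the motif, the sequence runs 5′ to 3′ on the RNA strand with T for U, positions are in TAIR9 and the letters come from the RefSeq sequence of TAIR10.1.
AT1G73950, chr1:27799909-27799938, minus strand: tttaggcttttTGTAGATAttatttacctc
AT5G26740, chr5:9294623-9294652, plus strand: cttgcctgcttTGTAGATAataggatatgg
AT1G51550, chr1:19117446-19117475, minus strand: atgacagtggaTGTAAATAtgtaatgtaag
AT1G48090, chr1:17732135-17732164, minus strand: aatattaagtgTGTATATAtatgataacat
AT1G16670, chr1:5699727-5699756, plus strand: gtatgtatgtaTGTAAATAtatttatagat
AT4G16450, chr4:9280806-9280835, plus strand: atgtattggttTGTAGATAgatgaacctag
AT1G52220, chr1:19453636-19453665, minus strand: catttgaaaccTGTAAATActttattgttg
BBX15, chr1:8933809-8933838, minus strand: gaggacttgtaTGTACATAgaagtaaccaa

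The share of hotspots with the PUF core differed from that of 3′ UTRs at large by less than the counting error. In the central 50 nt of each hotspot it occurred in 48 of 2447 (1.96%, 1.45 to 2.59). Windows of 50 nt tiled from the stop codon over all 3′ UTRs of at least 50 nt held it in 1.51% of 118643 cases, which is inside that interval. The first 5 genes shown had ribosome-bound levels of 0.101 to 0.782 RPKM (weighted clones per kb of transcript, scaled to the size of the library). The lowest was AT1G51550, a Kelch repeat F-box gene (0.0120 to 0.365, from 1.98 weighted clones). The highest of the 5 was AT1G48090, a calcium-dependent lipid-binding family gene (0.618 to 0.977). The last 3 were higher. AT4G16450, annotated as an NADH-ubiquinone oxidoreductase, stood at 5.51 RPKM (3.70 to 7.90). AT1G52220, a CURVATURE THYLAKOID protein gene, stood at 2.64 RPKM (1.60 to 4.11) and the B-box zinc finger gene BBX15 at 1.83 RPKM (1.23 to 2.63).

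Other short motifs also stayed near their level in 3′ UTRs. AATAAA was in the central 50 nt of 121 hotspots (4.94%, 4.12 to 5.88), against 5.3% of the tiled windows. ATTTA, the core of AU-rich instability elements of animals, was in 259 (10.6%, 9.39 to 11.9), against 11.8%. TTTGT was in 650 (26.6%, 24.8 to 28.4), against 24.4%, just under the lower limit. All were searched on the RNA strand only, and none of the 4 contains another, though neighbouring matches can share bases. A match describes the letters and not a bound site. The tiled windows come from all genes, whether or not their RNA was present in the buds. They leave out the bases after the last whole window at each 3′ end. Windows and hotspots were not matched by position.

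What set the hotspots apart inside their own 3′ UTRs was base composition, with more guanine and less cytosine. Averaged over the 2433 hotspots with at least 50 nt of 3′ UTR left around them, guanine made up 21.6% of the hotspot and 17.6% of the rest of the same UTR. It was higher inside in 1785 of them (73.4%) and lower in 644. Cytosine moved the other way, at 12.9% inside and 15.5% outside, and was lower inside in 1676 (68.9%). Uracil was 35.1% inside and 36.9% outside, and adenine 30.5% inside and 30.01% outside, so that the sum of guanine and cytosine differed by a median of only 1.27 percentage points (1.02 to 1.59). Against the windows of equal length directly before and after, in 2329 hotspots, guanine was 21.6% inside and 17.9% beside, and cytosine 12.9% inside and 15.2% beside.

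The change was sharp at the 5′ edge of the hotspots and less plain at the 3′ edge. At the 5′ edge, the mean guanine share was 16.7% over the 10 nt outside and 21.8% over the 10 nt inside, while that of cytosine was 16.4% and 11.97%. The last base outside the 5′ edge was guanine in 13.6% of hotspots and uracil in 43.3%. At the 3′ edge the mean guanine share was 17.2% over the 10 nt outside and 20.1% over the 10 nt inside. Cytosine there was 15.2% and 14.45%. The bases next to the end were uneven. Guanine was 24.9% of the fifth base from the end, 12.2% of the second and 14.2% of the last, and uracil was 41.8% of the last. Cytosine was 20.2% of the fourth base and 19.4% of the third, above its share outside. Further inside, 11 to 20 nt from the 3′ edge, guanine was 21.96% and cytosine 12.1%. The part of the enzyme or the library preparation in these edges was not tested.

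**Figure D1:**
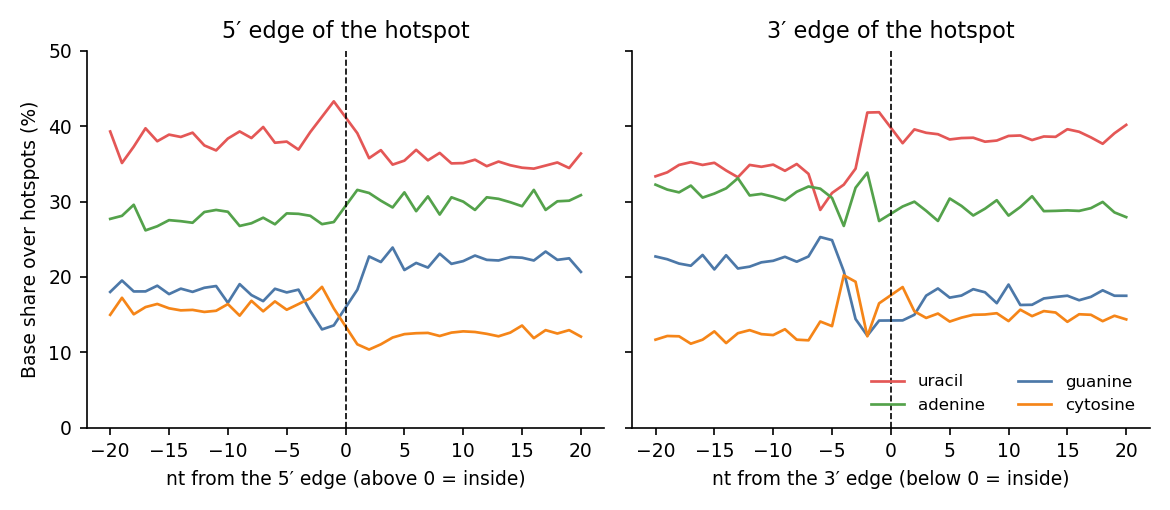
Base shares (%) over the 2447 hotspots inside 3′ UTRs at each nt around the 5′ edge (left) and the 3′ edge (right), with the dashed line at the edge and the inside of the hotspot to the right of it on the left panel and to the left of it on the right panel. Mean guanine was 16.7% over the 10 nt outside the 5′ edge and 21.8% over the 10 nt inside, and mean cytosine 16.4% and 11.97%.

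The same tilt was present in hotspots of other mRNA regions. Among 18955 hotspots wholly inside coding sequence, guanine was 26.7% inside and 24.1% in the rest of the coding sequence, and higher inside in 12729 (67.2%). Among 912 wholly inside 5′ UTRs it was 22.1% against 17.4%, and higher inside in 685 (75.1%). Cytosine was lower inside in 67.5% and 66.2% of them. The median rise in guanine was 3.91 percentage points in 3′ UTRs (3.65 to 4.23), 2.66 in coding sequence (2.56 to 2.76) and 4.63 in 5′ UTRs (4.22 to 5.11).

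Single genes differed in size and direction from the average. The RNA-recognition-motif gene AT3G15010 carried 3 hotspots in a 3′ UTR of 1416 nt, with guanine at 20%, 27.0% and 22.4%, against 20.9%, 20.4% and 20.8% in the rest of the UTR, so the first did not share the tilt. EP3, a chitinase gene, carried 3 in a 3′ UTR of 1232 nt, with guanine at 25%, 44.3% and 33.8%, against 22.6%, 21.4% and 22.1% in the rest. Its cytosine was 14.3%, 8.57% and 8.45%, against 18.2%, 18.6% and 18.6%. The opposite direction was found in RBCS1B, which encodes a small subunit of Rubisco, where a hotspot of 57 nt held 3.51% guanine and 22.8% cytosine, against 18.03% and 16.7% in the rest. The table lists RBCS1B with 808 nt and the annotation with 1894 nt. PI, the petal and stamen identity gene, also had this direction, with 11.1% guanine and 22.2% cytosine over 54 nt, against 17.8% and 14.2% in the rest. The isoform of EP3 has 2084 nt in the annotation and 876 nt in the deposited table, and exons of another gene lie on the opposite strand at all 3 hotspots, so their place in its 3′ UTR rests on the annotation.

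Predicted folding hardly separated the hotspots from their surroundings. The minimum free energy computed from sequence alone had a median of -7.40 kcal/mol in the hotspots and -7.65 kcal/mol in windows of the same length beside them. The median difference was 0.30 kcal/mol (0.10 to 0.50) towards weaker folding inside, seen in 1224 of 2329 hotspots (52.6%), with 1094 the other way. Against the upstream window alone it was 0.50 kcal/mol, and against the downstream window alone 0.00 (-0.20 to 0.20). Where GC content inside and beside differed by at most 2 percentage points, in 554 hotspots, the difference was 0.45 kcal/mol (0.10 to 0.85). Coding hotspots differed by 0.65 kcal/mol (0.60 to 0.75) in the same direction and 5′ UTR hotspots by -0.225 kcal/mol (-0.90 to 0.30).

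The extremes in single genes were far larger than the median. The hotspot of XK-2, a xylulose kinase gene, had -6.00 kcal/mol against a mean of -23.85 kcal/mol beside it. In AT2G25460 the values were -2.90 and -20.1 kcal/mol, and in the early nodulin-like gene ENODL18 -1.80 and -19.0 kcal/mol. In the other direction stood AGP41, an arabinogalactan protein gene, with -27.5 kcal/mol inside and -6.50 kcal/mol beside. The hotspots of MAC3B, a member of the MOS4-associated complex, and of the zinc finger gene YY1 had -25.6 and -22.5 kcal/mol, against -7.20 and -6.00 kcal/mol beside them. For ENODL18, AGP41 and YY1 only the window on the 3′ side lay inside the UTR. Stable predicted folds lay inside some hotspots and beside others.

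Most genes carried a single hotspot in the 3′ UTR, namely 2186, with 2 on 111 genes and 3 on 13. Lengths ran from 50 to 179 nt, with a median of 62 nt (quartiles 54 and 74), against 64 nt in coding sequence and 62 nt in 5′ UTRs. Hotspots of at least 100 nt were 5.72% of those in 3′ UTRs (4.83 to 6.72), 7.86% of those in coding sequence (7.48 to 8.25) and 2.69% of those in 5′ UTRs (1.75 to 3.95). The longest, of 179 nt, lay in PTP1, a protein tyrosine phosphatase gene, and ended 8 nt before the annotated 3′ end. The WD40 repeat gene AT3G13340 followed with 175 nt, the phosphatase-like gene AT4G29680 with 157 nt, AT1G29040, annotated as a 50S ribosomal protein L34, with 155 nt, and MIND, which helps place the chloroplast division site, with 154 nt.

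The sources used here give no formula for the deposited scores, which are all negative. In 3′ UTRs they ran from -1.27 to -3.59 with a median of -2.62. Of the 2447 scores, 2354 (96.2%, 95.4 to 96.9) matched a whole-number scale. On it the score is minus the inverse hyperbolic sine of a whole number, divided by the natural logarithm of 2. The number 1 gives -1.27 (14.1% of hotspots) and 6 gives -3.59 (13.2%), so the scores take few values. Whether these numbers are read counts was not tested. None of the 23 nuclear hotspots with a score below -10 lay wholly in a 3′ UTR. The most negative value in 3′ UTRs, -3.59, was shared by 322 hotspots. By length, the first 5 of these were AT3G13340 (175 nt), the BTB and TAZ domain gene BT2 (137 nt), the mitochondrial termination factor family gene AT1G61970 (135 nt), the importin alpha gene IMPA-1 (135 nt) and the RNA-binding protein gene RBP45A (134 nt). Their ribosome-bound levels differed widely, at 0.707, 0.0371, 0.0554, 0.802 and 2.62 RPKM. The levels of BT2 (4.23e-05 to 0.341) and AT1G61970 (0.00398 to 0.237) rest on only 0.511 and 1.5 weighted clones. The median score was -3.02 in coding sequence and -2.62 in 5′ UTRs.

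Where a gene carried more than 1 hotspot in its 3′ UTR, the gap between neighbours had a median of 84 nt (quartiles 41 and 185, n = 137). The genes with the most were AT1G29040 (259 nt in all), AT3G15010 (222 nt), RALFL22, which encodes a RALF-family signal peptide (210 nt), EP3 (197 nt) and the MYND zinc finger gene AT4G21890 (196 nt). All 5 had annotated 3′ UTRs of 944 to 1416 nt. For RALFL22 the hotspots began 67, 339 and 658 nt after the stop codon. The deposited table lists shorter transcripts than the annotation for RALFL22 (707 and 1933 nt), AT3G15010 (1645 and 2750 nt) and AT4G21890 (1061 and 2096 nt), so the far part of these 3′ UTRs rests on the annotation, whereas AT1G29040 has 1592 nt in both. At the AT1G29040 hotspots that begin 471 and 709 nt after the stop codon, an exon of another gene lies on the opposite strand.

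Genes with longer 3′ UTRs carried such a hotspot more often. Among the 22729 genes with a 3′ UTR of at least 50 nt, 2310 held one, a background of 10.2%. In the shortest quartile, 50 to 184 nt, the share was 2.85% (2.44 to 3.31), and in the next ones 7.32% and 11.4%. In the longest quartile, 334 nt and above, it was 19.2% (18.2 to 20.2). The median 3′ UTR was 324 nt for genes with a hotspot and 249 nt for all. Per 100 kb of 3′ UTR the density rose from 21.3 hotspots (18.2 to 24.8) in the shortest quartile to 42.0 (39.6 to 44.4) in the longest. Counting only positions where a median hotspot of 62 nt can start, the 4 values were 38.8, 47.6, 51.8 and 47.8 per 100 kb, so that the quartiles lay closer together once the room available was counted. Median ribosome-bound RNA also differed, from 0.181 RPKM in the shortest to 0.339 in the longest quartile.

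**Figure D2:**
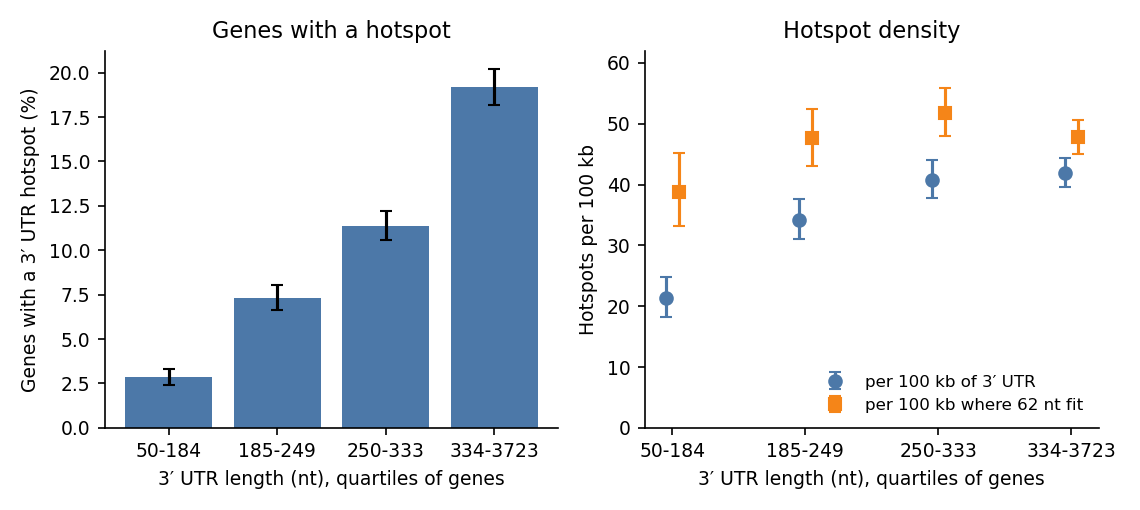
Left, share of genes (%) with a hotspot wholly inside the 3′ UTR by quartile of 3′ UTR length, with bars for 95% exact binomial intervals. Right, hotspots per 100 kb by the same quartiles, with 95% Poisson intervals, per base of 3′ UTR (circles) and per position where 62 nt fit (squares). The share of genes rose from 2.85% to 19.2%, and the density per fitting position lay between 38.8 and 51.8.

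Hotspots in the longest 3′ UTRs were in PHOT2, AT1G32630 and AT3G57720. PHOT2, a blue-light receptor gene, has an annotated 3′ UTR of 3118 nt, and its hotspot began 2815 nt after the stop codon. In AT1G32630, with 3016 nt, the hotspot began 5 nt after the stop codon, and in the protein kinase gene AT3G57720, with 2793 nt, it began 874 nt after it. The table lists AT1G32630 and AT3G57720 with transcripts of 869 and 2005 nt, against 3631 and 4069 nt in the annotation. At the hotspots of PHOT2 and AT1G32630 an exon of another gene lies on the opposite strand. Of all hotspots in 3′ UTRs, 8.26% (7.19 to 9.42) lay in UTRs of more than 1 exon, which hold 7.18% of all 3′ UTR bases.

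Along the 3′ UTR, hotspots were rarest at the far end. Of the positions at which each hotspot could start, the first 20% held 25.9% of hotspots (24.2 to 27.7), followed by 25.4%, 21.7% and 16.6%, and the last 20% held 10.3% (9.16 to 11.6). The median distance from the stop codon was 92 nt (quartiles 48 and 162.5), and 53.0% began within 100 nt of it. In 3′ UTRs of at least 300 nt the shares were 29.3%, 26.1%, 20.6%, 15.2% and 8.77%. In shorter ones they were 20.9%, 24.4%, 23.5%, 18.6% and 12.7%, so that the first part was near 20% there and only the last was clearly lower. Only 8.92% of the genes have the same transcript length in the deposited table and the annotation. For the 223 hotspots on those, the shares were 23.3%, 17.9%, 24.2%, 21.1% and 13.5%, so that the slope over the first 4 parts was no longer seen and the last part was still lowest (9.26 to 18.6). How far annotated 3′ ends match the transcripts of these buds was not tested.

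**Figure D3:**
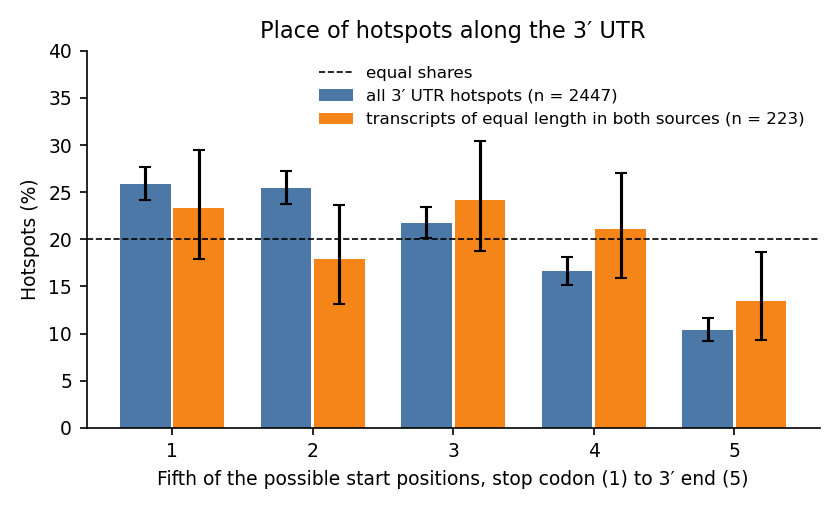
Share of hotspots (%) in 5 equal parts of the positions at which each could start in its 3′ UTR, from the stop codon (1) to the 3′ end (5), with 95% exact binomial intervals and a dashed line at 20%. All 2447 hotspots fell from 25.9% to 10.3%, while the 223 on transcripts whose lengths match between table and annotation went from 23.3% to 13.5%.

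Hotspots that only partly overlapped a 3′ UTR numbered 1224 and were left out by the rule. Of these 1042 reached into the coding sequence of the same gene, across the stop codon, and 182 held no coding base of that gene. Just outside the limit were 135 with at least 90% of their bases in the 3′ UTR, the highest at 99.1%. Exons of a gene on the other strand overlapped any base of 237 of the 2447 hotspots (9.69%, 8.54 to 10.9). Of single 3′ UTR bases, 10.5% faced such an exon. A whole hotspot can meet an exon more easily than a single base, so these shares are not matched. The shares for hotspots in coding sequence and 5′ UTRs were 2.84% and 4.52%. In genes whose transcript length matches between table and annotation the share of hotspots was 29.6% (23.7 to 36.1). There 22.8% of single 3′ UTR bases faced such an exon, again a share of another kind. Density per 100 kb of 3′ UTR was similar on the 5 chromosomes, from 34.6 (31.1 to 38.5) on chromosome 2 to 40.1 (36.7 to 43.8) on chromosome 3.

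Genes with a 3′ UTR hotspot had more ribosome-bound RNA than genes at large. Their median was 0.396 RPKM (0.374 to 0.425, n = 2239 above 0), 1.61 times the median gene at 0.246 RPKM, and 67.6% lay above the median gene (65.6 to 69.5). The background was 54.2% for all genes with a 3′ UTR of at least 50 nt, whose own median was 0.280 RPKM. Genes with hotspots elsewhere on the mRNA and none in the 3′ UTR had a median of 0.319 RPKM and 59.6% above the median gene, and genes with no hotspot 0.185 RPKM and 43.1%. At least 10 weighted clones were counted for 35.1% of genes with a 3′ UTR hotspot (33.2 to 37.2) and 25.7% of all with such a UTR. Within that abundant set, which is chosen on the level itself, 48.9% (45.4 to 52.5) and 50.0% lay above the set's own median. Of genes with a hotspot wholly in the 5′ UTR, 68.5% lay above the median gene (65.3 to 71.7). Fewer cells that express a gene and less RNA per cell cannot be told apart in these bulk buds.

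Across deciles of ribosome-bound RNA, the density in 3′ UTRs was lowest at the bottom and lay between 43.4 and 51.0 per 100 kb from the fifth decile up, while that in coding sequence was lower again in the highest decile. It was 17.7 hotspots per 100 kb of 3′ UTR in the lowest decile (14.3 to 21.6), 47.7 in the fifth (42.4 to 53.5), 51.0 in the eighth (45.5 to 56.9) and 47.1 in the highest (42.0 to 52.7). Coding sequence held 33.8 hotspots per 100 kb in the lowest decile, 74.9 in the fifth, 71.0 in the eighth (67.9 to 74.2) and 56.5 in the highest (53.3 to 59.7). In 5′ UTRs the density was 29.2 in the seventh decile (24.6 to 34.4) and 15.1 in the highest (11.7 to 19.3). Whether the 3 courses differ was not tested. The share of genes with a 3′ UTR hotspot was 4.26% in the lowest decile, 14.8% in the eighth and 14.3% in the highest, against 3.10% of genes listed at 0 RPKM. Split at a length of 254 nt, the longer 3′ UTRs had 19.3% in the fifth decile (16.99 to 21.9), 18.3% in the eighth and 18.0% in the highest. The shorter ones had 6.37% in the fifth, 10.6% in the eighth (8.74 to 12.8), 10.01% in the ninth and 7.93% in the highest (6.10 to 10.1), with overlapping intervals in the last 3.

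**Figure D4:**
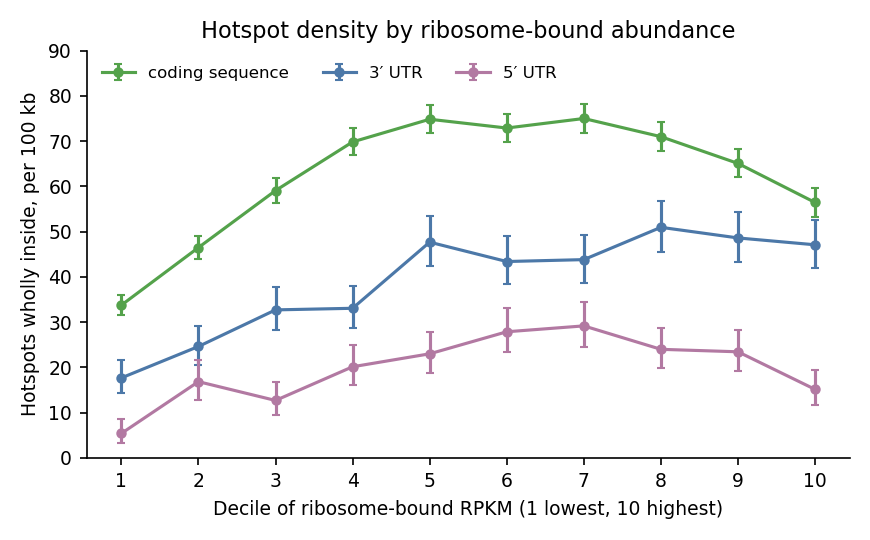
Hotspots per 100 kb lying wholly inside coding sequence, 3′ UTR or 5′ UTR (vertical axis) by decile of ribosome-bound RPKM (horizontal axis), with 95% Poisson intervals. From the eighth to the highest decile the 3′ UTR values were 51.0 and 47.1, with overlapping intervals, and the coding values 71.0 and 56.5.

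Of the 2310 genes, 1519 (65.8%, 63.8 to 67.7) also had a hotspot with bases in the coding sequence or 5′ UTR, against a background of 54.7% of all genes with a 3′ UTR of at least 50 nt. The gap differed in size between levels of ribosome-bound RNA, which was not tested. In the second RPKM decile 65.4% of genes with a 3′ UTR hotspot (56.4 to 73.6) and 42.5% of those without had one elsewhere. In the fifth decile the values were 77.2% (71.6 to 82.1) and 66.4%. In the eighth they were 69.9% (64.5 to 75.02) and 69.1%, and in the highest 53.6% (47.7 to 59.4) and 52.3%. Annotated mRNA length also differed, with a median of 2023 nt for the 1519 genes and 1321 nt for those with none elsewhere. For all genes with a 3′ UTR of at least 50 nt it was 1584 nt. The part of mRNA length in these shares was not tested.

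Among genes with a 3′ UTR hotspot, AT2G07732 stood first in ribosome-bound RNA. This gene, whose product name is that of a Rubisco large chain catalytic domain, was listed at 361 RPKM with a mean weight of 0.296 per clone. Every 20-nt stretch of its hotspot also occurs in an organelle genome, so neither the hotspot nor the level can be assigned to a nuclear mRNA. ATA20, an anther gene, stood at 52.6 RPKM (49.0 to 56.4), with a hotspot of 58 nt that began 136 nt after the stop codon. CAB2, a light-harvesting protein gene, stood at 39.6 RPKM (35.97 to 43.4) and the glutathione transferase gene GSTT3 at 39.0 RPKM (36.2 to 41.8), with mean weights of 0.379 and 0.208 per clone.

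The next 4 were LHCB4.1 of the photosystem II antenna at 29.8 RPKM (26.7 to 33.1) and PSBO1 of the oxygen-evolving complex at 29.0 RPKM (26.0 to 32.2). RBCS1B followed at 25.9 RPKM (22.4 to 29.7), with a mean weight of 0.345 per clone, and AT3G49910, an SH3-like translation protein gene, at 25.4 RPKM (21.8 to 29.5). The hotspot of LHCB4.1 ended 8 nt before the annotated 3′ end, and that of PSBO1 67 nt before its own. The deposited table lists both with shorter transcripts, at 1222 and 1244 nt, against 1396 and 1508 nt in the annotation. At the other end of the range, genes with 2 hotspots in the 3′ UTR were found at very low levels. AT4G37409, which is uncharacterised, had 0.0114 RPKM, the anion channel gene SLAH3 0.0228 RPKM and the RING finger gene AT2G18670 0.0252 RPKM, each from less than 1 weighted clone. Among the 2447 hotspots in 3′ UTRs, 81.7% (80.1 to 83.2) held no 20-nt stretch that occurs elsewhere in the genome and 1.10% consisted of such stretches entirely.

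By product name, most classes of genes lay near the background of 10.2%. F-box protein genes were low, with 14 of 263 (5.32%, 2.94 to 8.77), as were cytochromes P450, with 13 of 203 (6.4%, 3.45 to 10.7), an interval that reaches the background. Both classes had short 3′ UTRs, with medians of 210 and 214 nt, and low levels, at 0.127 and 0.139 RPKM. RNA-binding protein genes had 32 of 221 (14.5%, 10.1 to 19.8), ribosomal protein genes 45 of 329 (13.7%, 10.2 to 17.9) and zinc finger genes 60 of 442 (13.6%, 10.5 to 17.1), with median 3′ UTRs of 276 to 281 nt. The intervals of the RNA-binding and ribosomal protein genes reach the background, and that of the zinc finger genes lies just above it. Ribosomal protein genes had hotspots elsewhere on the mRNA in 39.8%, below the 54.7% of all genes. Pentatricopeptide repeat genes, which edit and process organelle RNA, had 23 of 238 in the 3′ UTR (9.66%) and 82.4% elsewhere. The shares elsewhere take no account of mRNA length.

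**Figure D5:**
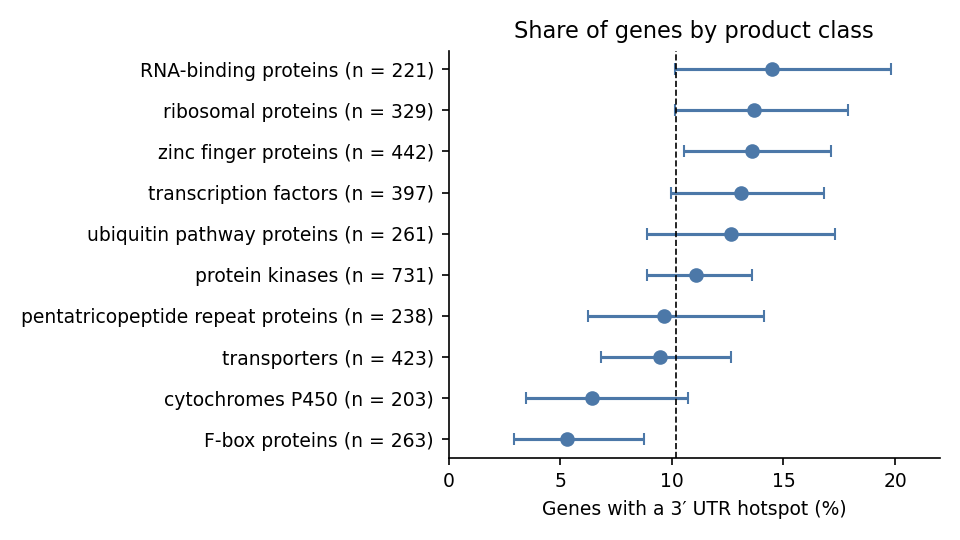
Share of genes (%) with a hotspot wholly inside the 3′ UTR for 10 classes of gene by product name, with 95% exact binomial intervals and n the genes with a 3′ UTR of at least 50 nt. The dashed line is the share of all such genes, 10.2%, and F-box protein genes were lowest at 5.32%.

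Lists of genes whose products act on 3′ UTRs are short, and their intervals all include the background of 10.2%. Of the mRNA decay list, 5 of 26 had one (19.2%, 6.55 to 39.4). ERF1-1, a translation termination factor, stood at 1.19 RPKM with a hotspot 266 nt after the stop codon. LBA1, the UPF1 helicase of nonsense-mediated decay, stood at 1.17 RPKM with a hotspot 30 nt after the stop codon of a 597-nt 3′ UTR. UPF3, which acts with it, AT1G02080, the scaffold of the CCR4-NOT deadenylase, and AT5G38890, an exosome subunit gene, were the others, named after their values were seen, at 0.264, 0.447 and 0.246 RPKM. In the list of 3′-end processing 2 of 20 genes had one, CLPS3 at 0.0984 RPKM and CFIM-25 at 0.0950 RPKM. Among poly(A)-binding proteins it was 1 of 7, PAB2 at 1.95 RPKM (1.43 to 2.61), with the hotspot 30 nt after the stop codon. None of the 12 PUF genes had one, which allows up to 26.5%.

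Among genes of flower and organ development, 2 of 22 floral regulators had a 3′ UTR hotspot (9.09%, 1.12 to 29.2), near the 10.2% of all genes. PI stood at 7.71 RPKM (6.12 to 9.59), with a hotspot 4 nt after its stop codon, and the corepressor gene LUG at 1.12 RPKM (0.789 to 1.55), with a hotspot 128 nt after it. AP3, AG, SEP3 and AP1 had none, at 1.99, 0.852, 2.57 and 1.33 RPKM. Of 15 auxin response factors, 4 had one (26.7%, 7.79 to 55.1), an interval that includes the 10.2% of all genes. All 15 had a hotspot elsewhere on the mRNA, against 54.7% of all genes, with no account taken of mRNA length. ARF6 stood at 0.923 RPKM (0.611 to 1.34) and ETT, which patterns the gynoecium, at 0.425 RPKM (0.201 to 0.791), with hotspots 15 and 22 nt after the stop codon. ARF9 and ARF19, named after their values were seen, stood at 0.415 and 0.0375 RPKM. Of 4 genes whose 3′ UTRs were reported as PUF targets, 1 had a hotspot there, AGO10 at 0.719 RPKM (0.455 to 1.08). The root and seed markers RHD6, EXPA7, SESA1 and CRA1 were at 0.113, 0.169, 0.0495 and 0.0140 RPKM and PHT1;1 and OLEO1 were listed at 0, below all 5 floral identity genes.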

How the data were processed

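The tools named per the submitters' processing notes are Bowtie 0.12.7 and cutadapt 0.9.5, with build TAIR9. No source used here names the hotspot caller. The name of the deposited list, whose score column holds values of no stated formula made by the authors, gives an FDR of 5%. The table gives, per the file headers, the deposited count of clones, an estimated count in which the authors weighted clones, and RPM and RPKM made from it by the authors (9574408 mapped clones in all, the depth of the ribosome-bound library). For the single-stranded library no depth can be read from its list.

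Isoforms were those of RefSeq for TAIR10.1 (ties on coding length went to an isoform of the table). RPKM was that of the same isoform or, where not listed, of the longest listed one. TAIR10 kept the nuclear sequence of TAIR9. In each of 25 bins of 5 Mb with at least 200 hotspots, guanine made up at most 20.1% of the second base and at least 27.4% of the fifth base from the 3′ edge, with the lowest share at the second base in 13 bins. Shifted by up to 3 nt, the guanine profile of 24 bins matched that of all other bins best with no shift, and that of the first 5 Mb of chromosome 4 (699 hotspots) best at 1 nt. Folding used ViennaRNA 2.7.2. Shares have exact binomial intervals, densities and RPKM Poisson intervals, medians order-statistic intervals, all at 95%. The placement code was tested on simulated intervals. The labels do not say whether the libraries share plants. Named genes were the extremes of score, length, number, RPKM, UTR length, motif and energy, and the 2 highest in each list. Members and lists were chosen with earlier results of these data known. Alternatives changed the isoform, the score limit, the overlap, strand neighbours and the RPKM filter.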

Additional observations from a re-analysis of the deposited data

How the results depend on the processing

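Of 64 alternative values, 37 stayed inside the 95% interval of the reported value or, for the count of hotspots, within 1.5 times it, 26 moved further and 1 reversed. The reversed value was the share of genes above the median gene in RPKM, which with at least 10 weighted clones, a filter on the level itself, was 48.9% (45.4 to 52.5) against a background of 50.0%. Those for the guanine and cytosine shares were chosen after seeing the data. With only scores more negative than the median, 1178 hotspots remained, with a median length of 66 nt, a median centre at 38.1% of the 3′ UTR (41.3% for all), 71.1% of genes above the median gene in RPKM, 46.1% with such a hotspot elsewhere (background 36.9%) and a guanine difference of 4.24 points. With only genes whose transcript length matches between table and annotation there were 223, with 61 nt and a centre at 48.8%. Of their genes 65.3% lay above the median gene (background 50.9%) and 62.6% had a hotspot elsewhere (background 46.9%). The folding difference there was 0.85 kcal/mol (-0.45 to 1.40) and the cytosine difference -2.23 points. Of these hotspots 29.6% faced an opposite-strand exon, and 18.1% of such genes in the longest UTR quartile held a hotspot. With at least 0.5 of the bases inside, the values were 3005 hotspots, 64 nt, a centre at 36.5% and a GC difference of 1.72 points. The share above the median gene was 73.8% with genes at 0 included (background 56.4%). It was 59.1% with a mean weight of at least 0.5 (background 52.2%) and 63.9% from unweighted clones (background 53.1%). The folding difference was 0 against the downstream window, the PUF core share 2.74% over whole hotspots, and the cytosine difference -2.00 points against neighbouring windows. Searching whole hotspots instead of their central 50 nt can only add matches, so the PUF core share could not fall, and it has no background of matched length. In the highest RPKM decile the longer and shorter 3′ UTRs gave 18.0% and 7.93%. The causes were not tested.

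No paired analysis was possible because each assay has 1 library. Depth limits genes of few clones, whose RPKM intervals are wide, and the depth behind the hotspots is unknown.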
